A study of Mus musculus with 16 samples.

Results

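The Hox genes encode homeodomain transcription factors and lie in 4 clusters, HoxA, HoxB, HoxC and HoxD. The genes examined here are the 38 mouse protein-coding genes whose symbols are Hoxa, Hoxb, Hoxc or Hoxd followed by a number, without Hoxb13, out of 21887 protein-coding genes. They comprise 11 genes of HoxA on chromosome 6, 9 of HoxB on chromosome 11, 9 of HoxC on chromosome 15 and 9 of HoxD on chromosome 2. Open chromatin was measured by ATAC-seq, in which a transposase cuts accessible DNA and tags it for sequencing. Peaks of all libraries that overlapped by 1 bp or more were merged into 86616 regions, and 65 of these had a Hox gene as the nearest protein-coding gene body within 100 kb. A library calls a region when at least 1 of its peaks overlaps it, and 59 of the 65 Hox regions were called in 2 or more libraries and are described below. Whole-series tests used the 80352 regions that met the same rule.

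The samples were mouse prostate organoids, which are self-organising cultures of prostate epithelial cells. There were 4 groups of 4 libraries: SPOP-mutant organoids (SPOPmut) given 10 nM dihydrotestosterone (DHT), SPOPmut organoids given ethanol (EtOH, the solvent), Control organoids given 10 nM DHT, and Control organoids given EtOH. SPOP hands proteins to a cullin-type ligase for ubiquitination, mutations in it recur among prostate tumours, and DHT is an androgen, the class of hormone on which prostate epithelium depends. Treatment lasted 24 h in medium without mEGF, and all 4 groups share the label sgNT. The SPOP variant, the way it was introduced and the number of organoid lines or animals behind the libraries are not given in the sources used here, so the p-values below measure the spread between these libraries, which may be technical. Peak lists held 57245 to 69644 peaks, read depth is unknown, and the number of libraries limits the precision. Bulk ATAC-seq cannot tell apart fewer cells of a type and less open chromatin per cell.

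Hox genes set position along the body axis. Within a cluster the genes are ordered, with paralogue group 1 at the 3′ end, active early and at the head side, and group 13 at the 5′ end, active late and at the tail side. The posterior genes of groups 9 to 13, among them Hoxa10, Hoxa11, Hoxa13, Hoxd11 and Hoxd13, pattern the urogenital tract, and Hoxa13 and Hoxd13 are needed for normal growth and branching of the mouse prostate. Silent Hox genes are held in chromatin bound by Polycomb proteins, and active ones in chromatin maintained by Trithorax proteins.

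**Figure D1:**
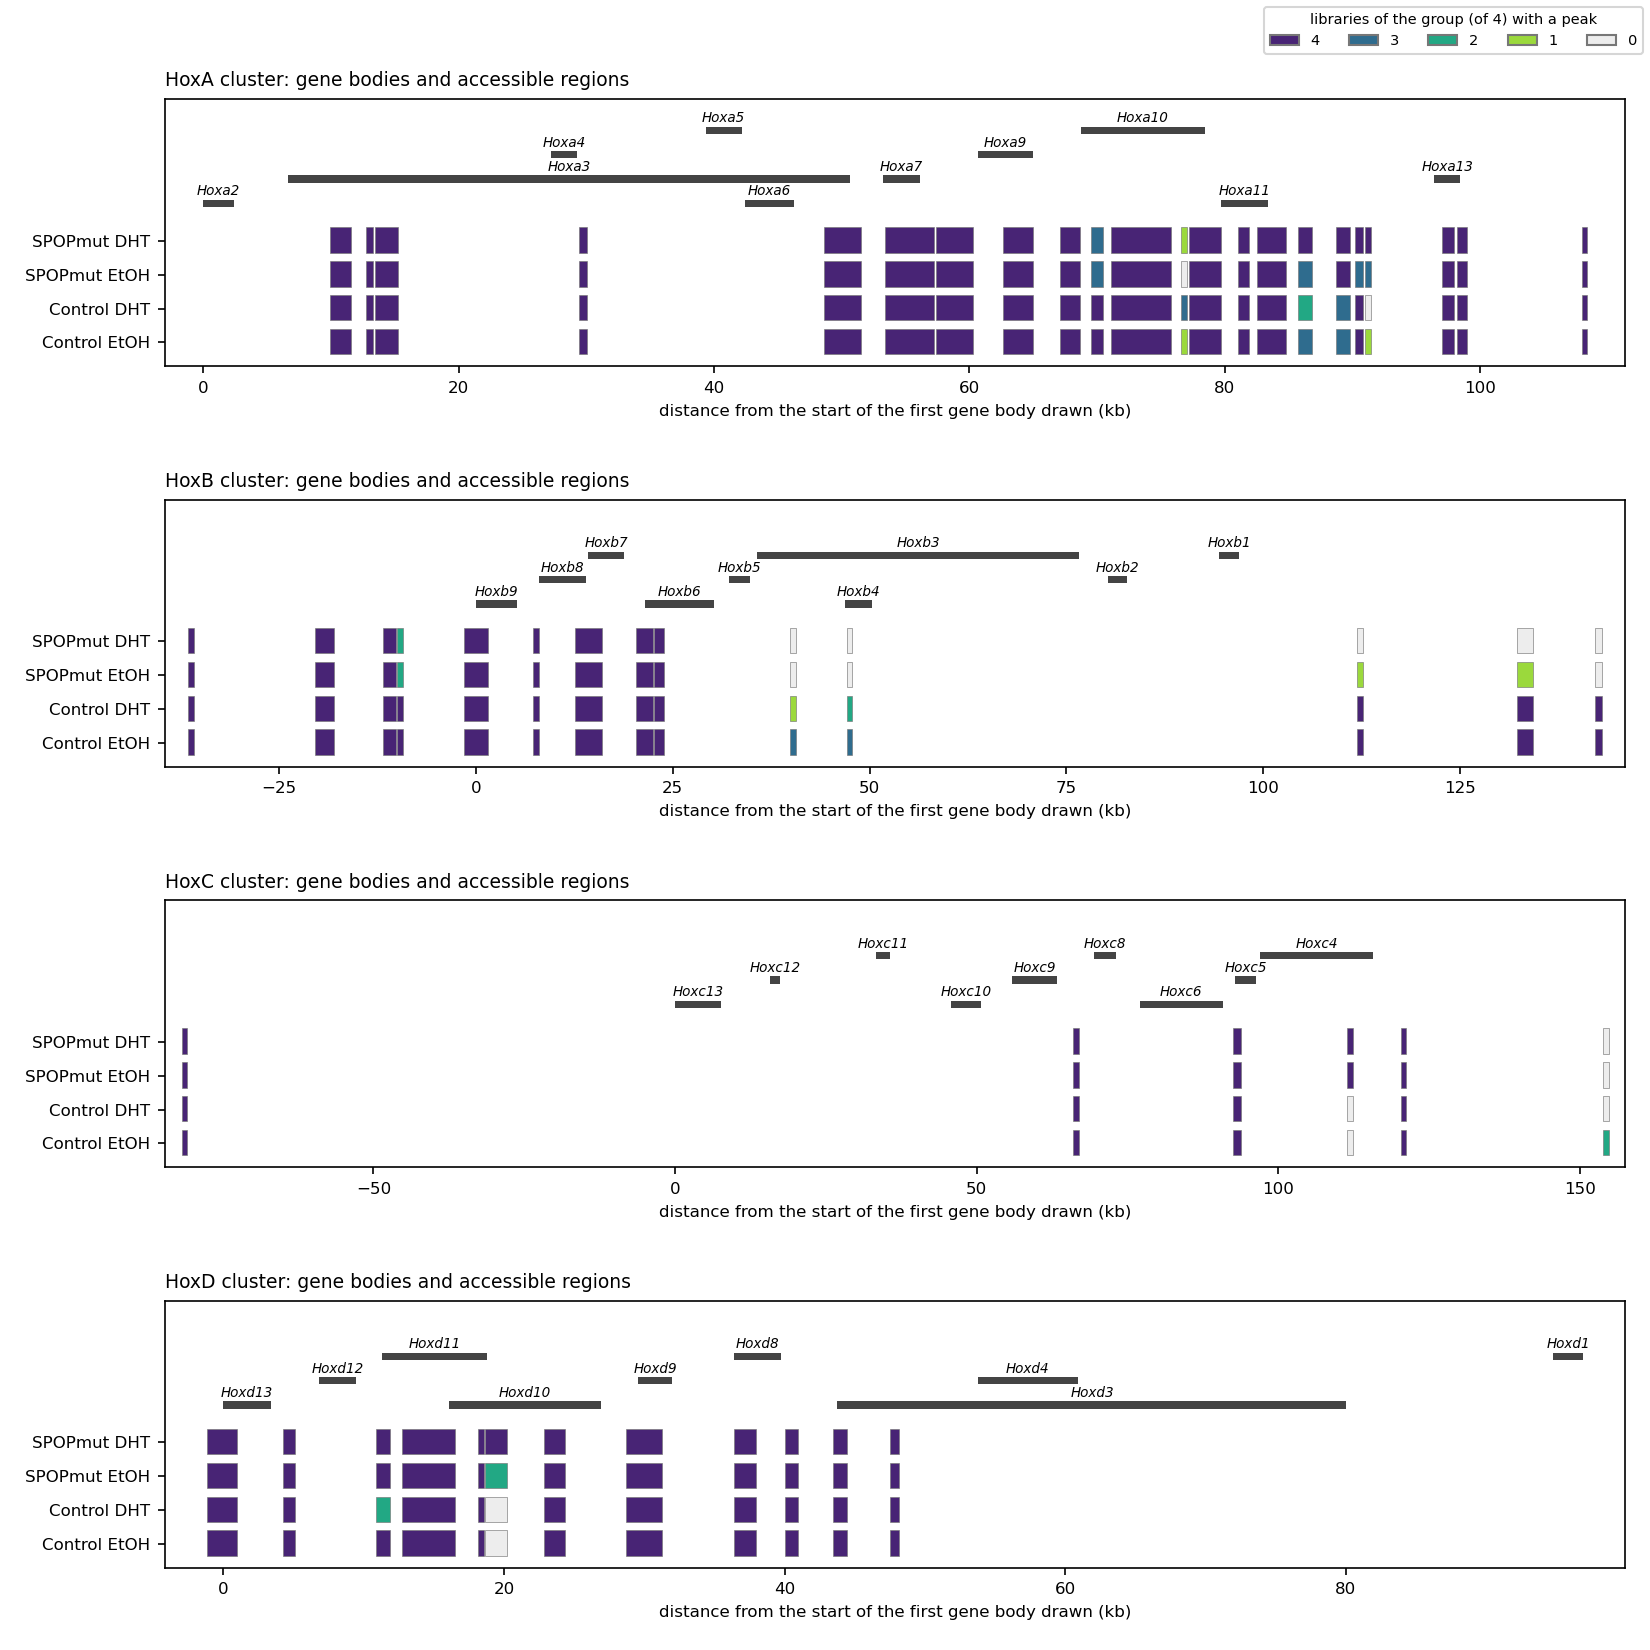
Gene bodies (dark bars) and accessible regions of the 4 Hox clusters, plotted by distance in kb from the start of the first gene body, with 1 row for each group and the colour giving how many of the group's 4 libraries had a peak. Very narrow regions are drawn wider than they are so that they can be seen. HoxA and the part of HoxD from Hoxd13 to Hoxd8 carry regions called in every library, HoxC is nearly empty, and the regions beyond Hoxb1 are present in Control and nearly absent in SPOPmut.

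Open chromatin lay mostly over HoxA, over Hoxb9 to Hoxb6 and over the 5′ part of HoxD, and it was sparse over HoxC. HoxA held 27 of the 59 regions, HoxB 14, HoxC 6 and HoxD 12. Of the 59 regions 39 (66.1%) were called in all 16 libraries, against 39300 of all 80352 tested regions (48.9%). The regions were 1008 bp wide at the median, against 667 bp for all tested regions. Of the 38 genes 24 had at least 1 region and 14 had none, as the map of the clusters shows.

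A peak covered part of the gene body in all 16 libraries for 18 of the 38 genes, in some libraries for 3 and in none for 17. All 4 posterior genes of HoxA were among those covered in every library, namely Hoxa9, Hoxa10, Hoxa11 and Hoxa13, and so were 4 of the 5 posterior genes of HoxD. Hoxd12 was the exception, with no peak over its body in any library. By contrast, none of the 5 posterior genes of HoxC had a peak over its body in any library. Hoxc13, known for its part in hair and nail, had 1 region, called in all 16 libraries, but 81.3 kb away. No other Hox region lay farther from its gene, and no region with a Hox gene as its nearest gene lay beyond 100 kb. The genes with no region assigned were Hoxa2, Hoxa4, Hoxa5 and Hoxa6 of HoxA, Hoxb2 and Hoxb5 of HoxB, Hoxc6, Hoxc9, Hoxc10, Hoxc11 and Hoxc12 of HoxC, and Hoxd1, Hoxd4 and Hoxd12 of HoxD. Hoxa4, Hoxa5 and Hoxa6 lie within the span of the Hoxa3 body, so a region between them was assigned to Hoxa3. Hoxa3 region 4 (chr6:52191836-52192460), called in all 16 libraries, starts just beyond the end of the Hoxa4 body at 52191703.

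Peaks covered 28.0% ± 1.27 of the HoxA span in SPOPmut libraries and 28.6% ± 1.92 in Control libraries (SD, n = 8 each, the span running from the first to the last gene body). The share of HoxB covered was 6.94% ± 0.429 in SPOPmut and 8.21% ± 0.523 in Control. For HoxC it was 1.68% ± 0.263 in SPOPmut and 0.910% ± 0.234 in Control, and for HoxD 13.2% ± 0.935 in SPOPmut and 9.33% ± 0.714 in Control. HoxA was thus the most accessible cluster in both genotypes and HoxC the least. The stretch from Hoxd4 to Hoxd1 carried no peak in any library, and the stretch from Hoxc13 to Hoxc9 carried none either.

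The strongest Hox peaks, by the median within-list percentile of the authors' -log10 p, were found in HoxA and HoxB. Hoxa9 region 1 (chr6:52219829-52222691, mm10) had a median percentile of 93.6, the highest of the Hox regions, and Hoxb9 region 5 (chr11:96269821-96272821) had 87.4. Both were called in all 16 libraries. In HoxD, Hoxd11 region 2 had a median percentile of 82.3. Over the 39 Hox regions called in all 16 libraries the median was 58.6, below the 66.2 of all 39300 such regions.

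Promoters could be examined for 22 of the 38 genes, which had 24 promoter windows in RefSeq (assembly GRCm38.p6, the assembly of mm10), each running from 250 bases before to 50 bases after a transcription start. Of the 24 windows 10 (41.7%) were overlapped by a peak in all 16 libraries, 10 (41.7%) in none and 4 in some, against 46.6% and 46.6% of 21263 windows of all protein-coding genes. HoxA and HoxD had 5 windows each that were open in every library, while the 3 HoxB windows (Hoxb1, Hoxb4, Hoxb8) and the HoxC window (Hoxc4) were open in none. No window was available for Hoxb6, Hoxb7, Hoxb9 and Hoxc5, whose bodies had a peak in all 16 libraries, so the clusters cannot be compared by these windows. Open windows held 12 to 45 CpG dinucleotides with a median of 20.5, and closed windows 4 to 29 with a median of 13. Over all protein-coding genes the medians were 23 for open and 4 for closed windows, so the closed Hox windows held more CpG than closed windows in general. The 4 windows open in some libraries only were those of Hoxa7 and Hoxa9, the window of Hoxd11 with 4 CpG and that of Hoxd8.

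The windows of 4 genes are printed to show the contrast, with CpG dinucleotides in capitals, 5′ to 3′ on the strand of the gene. Hoxa13 (chr6:52260831-52261130, minus strand) and Hoxd13 (chr2:74667975-74668274, plus strand) were open in all 16 libraries and held 45 and 37 CpG. Hoxa5 (chr6:52204538-52204837, minus strand) and Hoxd12 (chr2:74674763-74675062, plus strand) were open in none and held 29 and 13 CpG.
Hoxa13: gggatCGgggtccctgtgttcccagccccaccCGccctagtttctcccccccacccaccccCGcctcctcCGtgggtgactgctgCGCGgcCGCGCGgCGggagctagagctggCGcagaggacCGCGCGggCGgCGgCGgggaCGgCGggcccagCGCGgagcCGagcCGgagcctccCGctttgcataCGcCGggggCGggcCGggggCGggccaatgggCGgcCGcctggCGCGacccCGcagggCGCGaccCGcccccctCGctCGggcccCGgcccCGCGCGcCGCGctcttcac
Hoxd13: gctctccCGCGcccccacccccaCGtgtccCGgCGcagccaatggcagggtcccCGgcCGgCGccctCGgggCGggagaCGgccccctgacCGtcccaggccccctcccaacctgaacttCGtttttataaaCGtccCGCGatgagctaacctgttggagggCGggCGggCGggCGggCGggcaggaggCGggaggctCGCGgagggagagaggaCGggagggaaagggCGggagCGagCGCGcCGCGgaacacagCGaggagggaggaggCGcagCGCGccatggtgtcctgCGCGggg
Hoxa5: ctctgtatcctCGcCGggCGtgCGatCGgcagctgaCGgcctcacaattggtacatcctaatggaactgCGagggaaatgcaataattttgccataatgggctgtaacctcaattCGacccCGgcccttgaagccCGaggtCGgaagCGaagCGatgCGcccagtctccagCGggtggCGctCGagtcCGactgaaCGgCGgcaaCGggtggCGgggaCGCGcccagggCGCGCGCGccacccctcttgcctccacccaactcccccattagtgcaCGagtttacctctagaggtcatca
Hoxd12: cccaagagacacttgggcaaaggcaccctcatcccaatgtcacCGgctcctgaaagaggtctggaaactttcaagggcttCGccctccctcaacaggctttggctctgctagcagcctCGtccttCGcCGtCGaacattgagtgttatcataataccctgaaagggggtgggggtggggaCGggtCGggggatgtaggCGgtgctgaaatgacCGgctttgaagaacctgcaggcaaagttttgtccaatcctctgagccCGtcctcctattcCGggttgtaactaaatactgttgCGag

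The windows were searched on both strands for TATAAA, the letters of the TATA box, and for the AP-1 motif TGANTCA. No Hox window held both, so no matches overlap. TATAAA was found in 4 windows (16.7%; Hoxa10, Hoxb8, Hoxd13 and Hoxd4), against 12.6%. Only the window of Hoxd13 holds it on the strand of the gene, and those of Hoxa10, Hoxb8 and Hoxd4 hold it on the opposite strand alone. TGANTCA was found in 1 window (4.17%; the window of Hoxd11 with 4 CpG), against 6.99%. A match describes the letters of the window and is not a bound site.

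**Figure D2:**
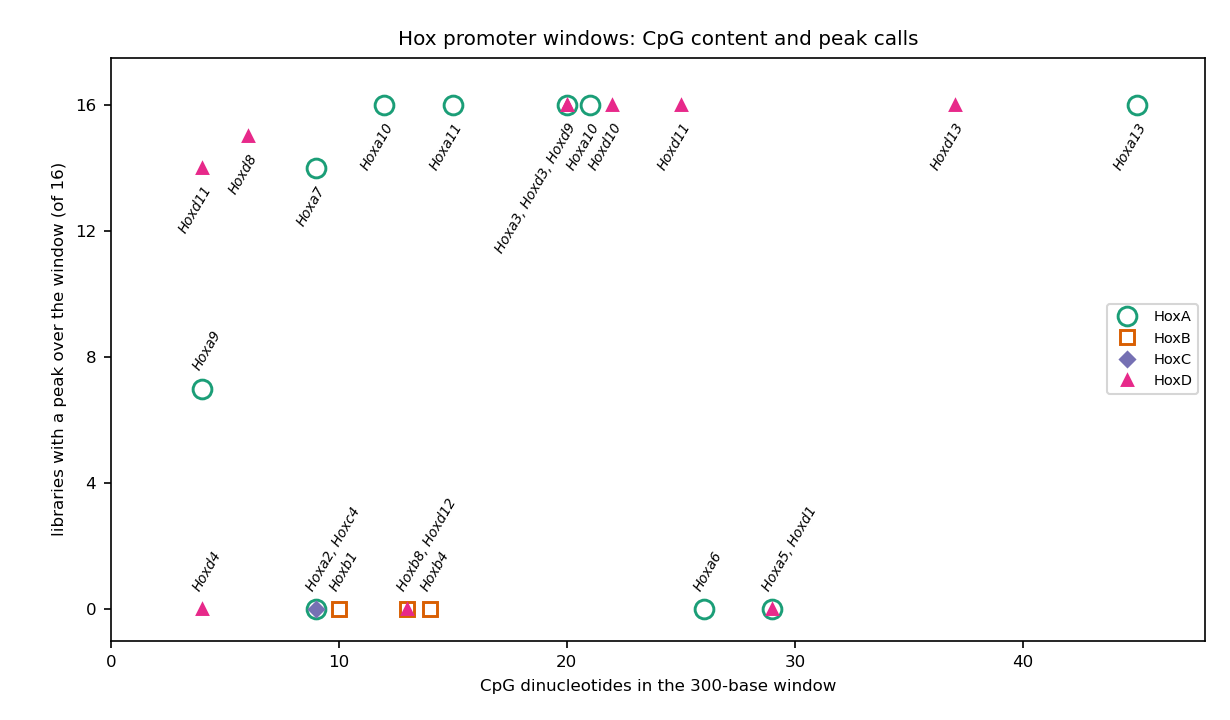
Number of libraries (of 16) with a peak over each of 24 Hox promoter windows, against the number of CpG dinucleotides in the window, with the cluster given by marker and colour. The 2 most CpG-rich windows, Hoxa13 and Hoxd13, were open in all 16 libraries, and Hoxa5, Hoxd1 and Hoxa6, with 26 to 29 CpG, in none.

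The clusters and their edges also hold 6 microRNA loci of the miR-10, miR-196 and miR-615 families, whose targets include Hox transcripts. Their mature forms show which loci share a seed (bases 2 to 8, in capitals), and so a set of predicted targets.
miR-10a-5p: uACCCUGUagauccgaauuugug
miR-10b-5p: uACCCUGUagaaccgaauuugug
miR-196a-5p: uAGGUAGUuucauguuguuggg
miR-196b-5p: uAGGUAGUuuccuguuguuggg
Mir196b, which lies between Hoxa9 and Hoxa10, was fully overlapped by a peak in all 16 libraries. Mir196a-1 beside Hoxb9 and Mir196a-2 in HoxC encode the same mature miR-196a-5p, share the seed of miR-196b, and had no peak in any library. Mir10a in HoxB and Mir10b in HoxD, which share the other seed, also had no peak in any library. Mir615 in HoxC was touched at its edge, over 10 to 19 of its 92 bases, in 5 SPOPmut libraries and in 0 Control libraries.

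The first comparison asks how the Hox clusters differ between SPOPmut and Control organoids. The 15 Hox genes with 2 or more regions were tested for the number of regions called per library (exact permutation of genotype within treatment, 4900 arrangements, two-sided, smallest possible p 0.000408, Benjamini-Hochberg adjustment over 11212 genes). At an adjusted p under 0.05, Hoxc4 and Hoxd10 were higher in SPOPmut and Hoxb1 was lower. Over all genes 31.5% passed, 19.4% higher and 12.1% lower, so 3 of 15 is no more than the background. Of the 15 genes 6 had the same count in all 16 libraries (Hoxa3, Hoxa9, Hoxb6, Hoxd3, Hoxd8 and Hoxd13), against 11.6% of all tested genes. All of these but Hoxa3 had only 2 regions, the fewest a tested gene can have, and so little room to vary. The share of all genes was not matched for the number of regions, so the 2 shares cannot be compared directly.

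**Figure D3:**
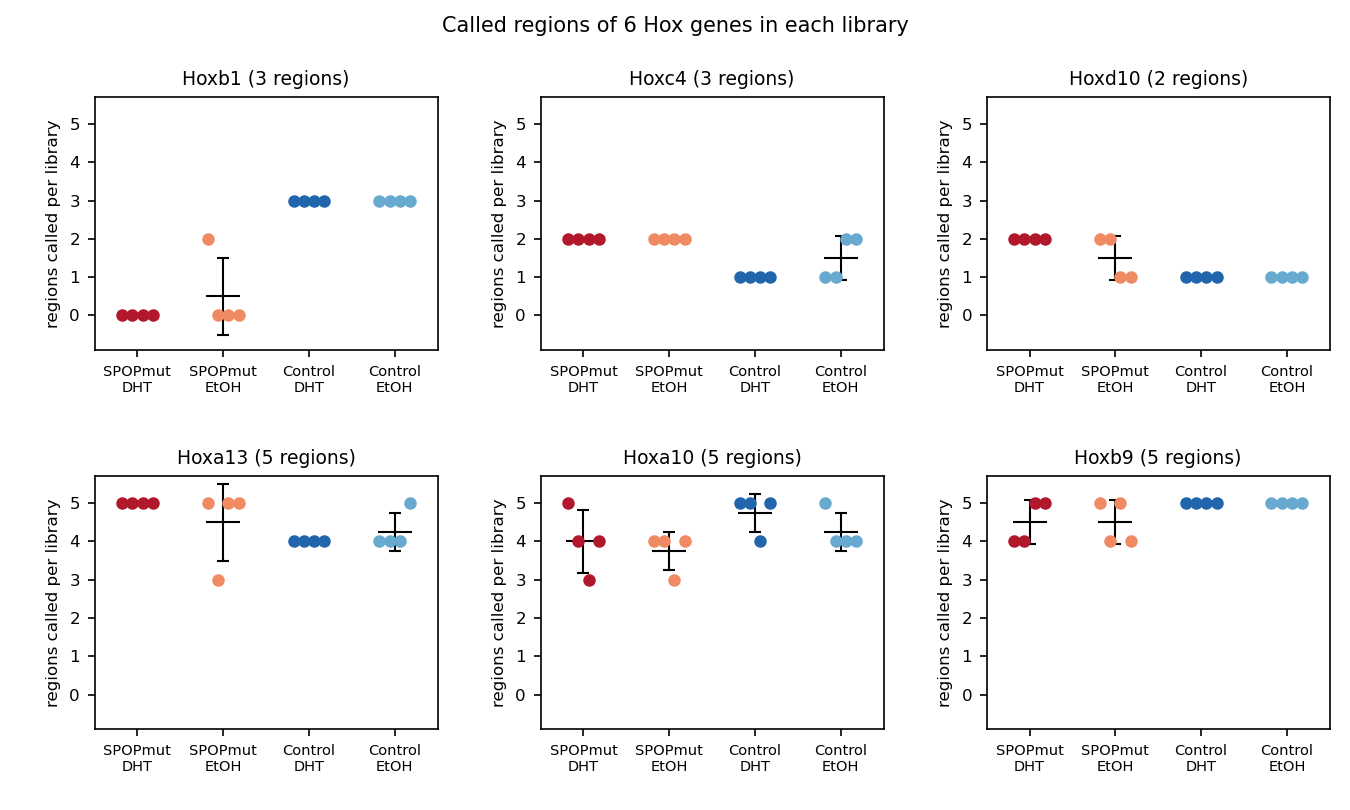
Regions called per library for Hoxb1, Hoxc4, Hoxd10, Hoxa13, Hoxa10 and Hoxb9, with points for single libraries and bars for mean ± SD of the 4 libraries of a group. Hoxb1 has 3 regions in every Control library and 0 in 7 of 8 SPOPmut libraries, and Hoxb9 has 5 in every Control library and 4 or 5 in SPOPmut libraries.

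Hoxb1, the 3′-most gene of HoxB and known for its part in the hindbrain, had the largest difference. Its count was 0, 0, 0 and 0 regions in the SPOPmut DHT libraries and 2, 0, 0 and 0 in the SPOPmut EtOH libraries, against 3 in each of the 8 Control libraries. The genotypes did not overlap. The difference was -2.75 regions (exact permutation test, adjusted p = 0.00325), and it was lower in 8 of 8 SPOPmut libraries.

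None of these regions touched Hoxb1 itself, whose body and promoter window carried no peak in any library. Distances here run from the centre of a region to the gene body. Region 1 (chr11:96383400-96383927), 15.4 kb beyond the gene body, and region 2 (chr11:96403582-96405537), 36.3 kb beyond it, were each called in 1 of 8 SPOPmut libraries and 8 of 8 Control libraries (exact stratified test over 80352 regions, adjusted p = 0.0292). Region 3 (chr11:96413522-96414318), 45.7 kb beyond the gene body, was called in 0 of 8 SPOPmut and 8 of 8 Control libraries (exact test, adjusted p = 0.00961). With the 50% stronger peaks of each list, region 3 was called in a share of libraries lower by 0.5 instead of 1 and did not pass (exact test, adjusted p = 0.156). All 3 lie between Hoxb1 and its neighbour Skap1, an adaptor protein gene of T cells. That gap of 96.3 kb held 5 regions called in 2 or more libraries, and each of the 5 was called in 8 of 8 Control libraries. The 2 nearer to Skap1 and assigned to it were called in 3 of 8 SPOPmut libraries (exact test, adjusted p = 0.169) and in 0 of 8 (adjusted p = 0.00961). These 5 regions of the gap were thus called throughout Control, and SPOPmut libraries called few of them.

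Hoxb3 and Hoxb4 each had a region that was called in Control libraries alone. The region of Hoxb3 was called in 0 of 8 SPOPmut and 4 of 8 Control libraries (exact test, adjusted p = 0.354), and that of Hoxb4 in 0 of 8 SPOPmut and 5 of 8 Control libraries (adjusted p = 0.169). Neither passed. At the posterior end Hoxb9, which has a part in axial and mammary patterning in mice, had 4, 4, 5 and 5 regions in SPOPmut DHT and 5, 4, 5 and 4 in SPOPmut EtOH, against 5 in each of the 8 Control libraries. Its difference of -0.50 did not pass (exact test, adjusted p = 0.198). With lists of equal length it was -0.875 and passed (exact test, adjusted p = 0.00913). It also passed as a share of the library's called regions (exact test, adjusted p = 0.0022). With the chromosome call rate subtracted it was -0.44 and passed (exact test, adjusted p = 0.0253), and with the flank rate -0.57 (adjusted p = 0.00196). In the other 7 of 11 settings that left out no library it did not pass. Among these was the setting with only the stronger peaks of each list, where the difference was 0. Hoxb6 had 2 regions and Hoxb7 and Hoxb8 had 1 region each in all 16 libraries. Together the HoxB regions called numbered 8 to 11 per SPOPmut library (8.75 ± 1.04) and 12 to 14 per Control library (13.1 ± 0.991; SD, n = 8 each).

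**Figure D4:**
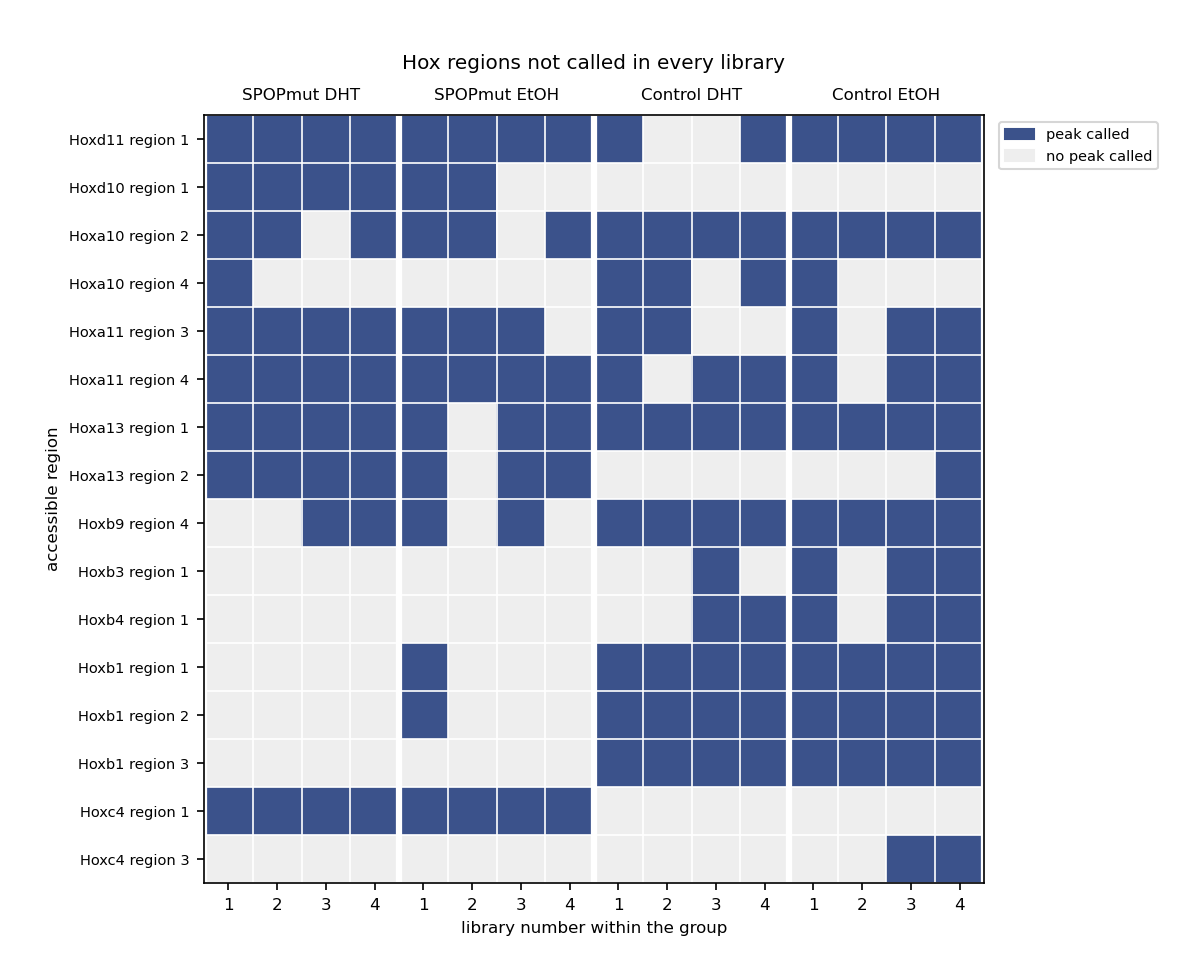
Calls of 16 of the 20 Hox regions that were not called in every library (rows) in the 16 libraries (columns, grouped by genotype and treatment), with filled cells for a called peak. Hoxc4 region 1 is filled in all 8 SPOPmut and no Control library, and Hoxb1 region 3 in the reverse pattern.

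Hoxc4 had 2 regions in each of the 8 SPOPmut libraries, against 1, 1, 1 and 1 in Control DHT and 1, 1, 2 and 2 in Control EtOH. The groups touch at 2 regions, and the difference of 0.75 passed (exact test, adjusted p = 0.0237). The SPOPmut count included region 1 (chr15:103032659-103033331), inside the gene body and 1.06 kb upstream of the RefSeq start, which was called in 8 of 8 SPOPmut and 0 of 8 Control libraries (exact test, adjusted p = 0.00961). Where peaks had to cover 50% of the region, the difference in the share of libraries was 0.75 and region 1 did not pass (exact test, adjusted p = 0.0583). The second region of the 2 Control EtOH libraries was another one, 38.6 kb from the gene body. The promoter window itself was closed in all libraries. Hoxc4 lost its call after the call rate of chromosome 15 was subtracted from each library (0.32 regions, exact test, adjusted p = 0.0865).

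Hoxd10, a gene of limb and urogenital patterning, had 2 regions in each SPOPmut DHT library and 2, 2, 1 and 1 in SPOPmut EtOH, against 1 in each of the 8 Control libraries. The difference was 0.75 (exact test, adjusted p = 0.0237), with 6 of 8 SPOPmut libraries above every Control library. The region involved, region 1 (chr2:74686905-74688446), lies 3.45 kb upstream of the RefSeq start and did not pass alone (exact test, adjusted p = 0.0695). With lists of equal length the call of Hoxd10 was lost (0.38 regions, exact test, adjusted p = 0.374). Hoxd11 had 3, 3, 3 and 3 regions in SPOPmut DHT and 3, 3, 3 and 3 in SPOPmut EtOH, against 3, 2, 2 and 3 in Control DHT and 3, 3, 3 and 3 in Control EtOH, a difference of 0.25 that did not pass (exact test, adjusted p = 0.655). It was 1.5 where peaks had to cover 50% of a region (exact test, adjusted p = 0.0031) and 0.875 with the 50% stronger peaks of each list (0.0238), and it turned to -0.21 with the chromosome and -0.13 with the flank call rate subtracted. Hoxd13 had 2 regions and Hoxd9 had 1 in every library.

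Of the HoxA genes none passed in the main test. Hoxa3, with 5 regions in every library, passed in 2 of 11 other settings that left out no library, and not in the other 9. Its difference was -1 where peaks had to cover 50% of a region (exact test, adjusted p = 0.0031). With the 50% stronger peaks of each list it was -1.5 (exact test, adjusted p = 0.0077). Hoxa13 had 5, 5, 5 and 5 regions in SPOPmut DHT and 5, 3, 5 and 5 in SPOPmut EtOH, against 4, 4, 4 and 4 in Control DHT and 4, 4, 4 and 5 in Control EtOH. The groups overlap because of 1 SPOPmut EtOH library and 1 Control EtOH library, and the difference of 0.62 did not pass (exact test, adjusted p = 0.240). Without that SPOPmut EtOH library, number 2, it was 0.88 and passed (exact test, adjusted p = 0.0099). With all 16 libraries it passed with the chromosome (0.821, exact test, adjusted p = 0.0317) or flank (0.799, adjusted p = 0.0320) call rate subtracted. In the other 8 of 10 settings that left out no library and tested Hoxa13 it did not pass. The varying region, region 2 (chr6:52253406-52253867), 5.22 kb from the gene body, was called in 7 of 8 SPOPmut libraries and 1 of 8 Control libraries (exact test, adjusted p = 0.123).

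The other varying posterior HoxA genes did not pass. Hoxa10, needed for uterine and male urogenital development in mice, had 5, 4, 3 and 4 regions in SPOPmut DHT and 4, 4, 3 and 4 in SPOPmut EtOH, against 5, 5, 4 and 5 in Control DHT and 5, 4, 4 and 4 in Control EtOH (difference -0.62, exact test, adjusted p = 0.248). Hoxa11 had 4, 4, 4 and 4 in SPOPmut DHT and 4, 4, 4 and 3 in SPOPmut EtOH, against 4, 3, 3 and 3 in Control DHT and 4, 2, 4 and 4 in Control EtOH (difference 0.50, exact test, adjusted p = 0.444). Both genes overlap between genotypes. Hoxa10 was negative in all 11 other settings that left out no library (-0.76 to -0.12), and Hoxa11 was 1.25 and passed where peaks had to cover 50% of a region (exact test, adjusted p = 0.0243). Hoxa9 had 2 regions and Hoxa7 had 1 in every library.

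Counted over regions, 4 of the 59 Hox regions passed for genotype, 1 higher and 3 lower in SPOPmut, against 6.99% of all regions (3.76% higher, 3.23% lower). They are Hoxc4 region 1 and the 3 regions of Hoxb1 given above. Of the 20 Hox regions that were not called in every library, 12 were called in more Control libraries, 6 in more SPOPmut libraries and 2 equally often. Over all 41052 regions not called in every library, 41.0% were called in more Control libraries, 51.2% in more SPOPmut libraries and 7.78% equally often, and the difference was not tested. Under DHT, 3 regions had a peak in every SPOPmut library and in 0 Control libraries (Hoxd10 region 1, Hoxa13 region 2 and Hoxc4 region 1, background 6.41%). The reverse pattern held for the 3 regions of Hoxb1 (background 4.22%). Under EtOH, Hoxc4 region 1 was so called in SPOPmut (background 4.84%) and Hoxb1 region 3 in Control (background 4.36%). With 4 libraries against 4 the smallest p of an exact permutation test is 0.0286, so these are counts without a test.

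Peaks that were called in every library still differed in width. Among the 39 Hox regions called in all 16 libraries, 5 were covered over more bases in every SPOPmut library than in any Control library, against 5.17% of all such regions, and 2 over fewer bases, against 3.83%. This measure was chosen after the data were seen and is given without a test. All 5 wider regions were those of Hoxd13, Hoxd11 and Hoxd8, and they make up 5 of the 10 constant HoxD regions, against 17.01% of the constant regions of chromosome 2.

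**Figure D5:**
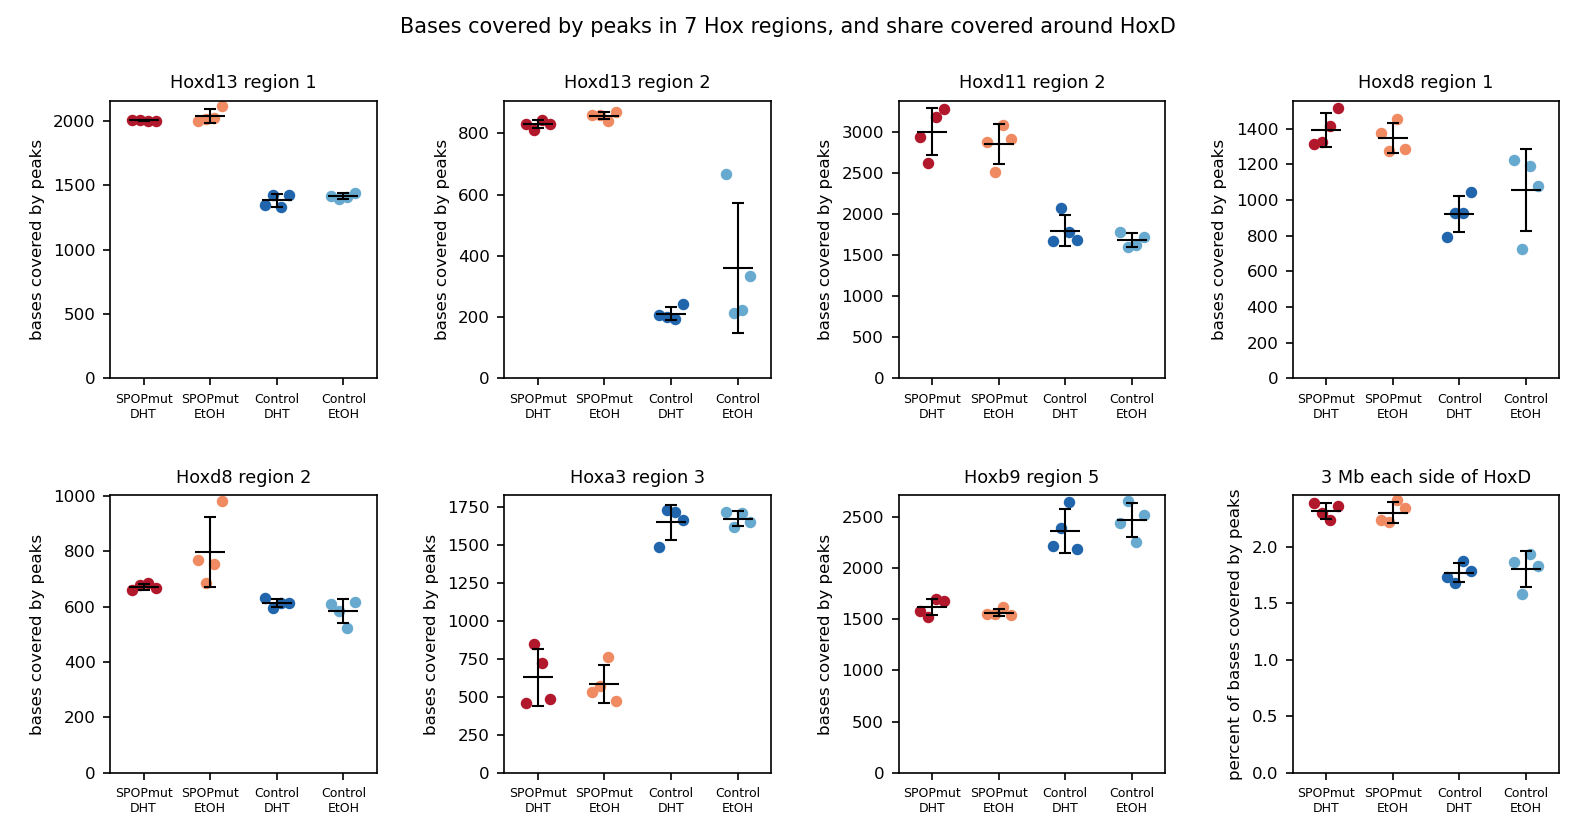
Bases covered by peaks in the 7 Hox regions called in all 16 libraries in which the 8 SPOPmut and 8 Control libraries did not overlap, and, in the last panel, the percent of bases covered in the 3 Mb on each side of HoxD. Points are libraries and bars are mean ± SD of 4 libraries. The first 5 panels, all HoxD, are higher in SPOPmut, as is the surrounding 3 Mb, and Hoxa3 region 3 and Hoxb9 region 5 are lower in SPOPmut.

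Hoxd13 region 1 (chr2:74667063-74669193), which holds the promoter window printed above, was covered over 2007, 2010, 1999 and 2001 bases in SPOPmut DHT and 1995, 2011, 2019 and 2116 bases in SPOPmut EtOH, against 1348, 1426, 1329 and 1427 bases in Control DHT and 1420, 1390, 1409 and 1441 bases in Control EtOH. The genotypes were apart by more than the whole range within either. Hoxd13 region 2 (chr2:74672442-74673325), between Hoxd13 and Hoxd12, was covered over 831, 811, 844 and 830 bases in SPOPmut DHT and 860, 861, 841 and 869 bases in SPOPmut EtOH, against 206, 202, 195 and 242 bases in Control DHT and 667, 215, 223 and 333 bases in Control EtOH. Control EtOH library 1 was the Control library nearest to the SPOPmut ones.

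Hoxd11 region 2 (chr2:74680984-74684763), which spans the CpG-richer of the windows of Hoxd11, was covered over 2515 to 3270 bases in SPOPmut (2924 ± 259) and 1592 to 2069 bases in Control (1738 ± 149; SD, n = 8 each). The 2 regions of Hoxd8 were covered over 1370 ± 86.4 bases in SPOPmut against 990 ± 178 in Control for region 1, and over 735 ± 107 in SPOPmut against 599 ± 34.2 in Control for region 2. Over the stretch from Hoxd13 to Hoxd9 peaks covered 28.8% ± 2.67 of bases in SPOPmut and 19.4% ± 1.67 in Control. The ratio of SPOPmut to Control was 2.96 for Hoxd13 region 2, the highest of these 7 regions, although Hoxd13 had 2 called regions in every library. When only the 50% of peaks with the higher -log10 p in each list were kept, Hoxd13 had 2, 2, 2 and 2 regions in SPOPmut DHT and 2, 1, 2 and 2 in SPOPmut EtOH, against 0, 1, 0 and 1 in Control DHT and 1, 1, 0 and 0 in Control EtOH (difference 1.38, exact permutation test, adjusted p = 0.00771).

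The 2 narrower regions were at Hoxa3 and Hoxb9. Hoxa3 region 3 (chr6:52175876-52177634), inside the long body of Hoxa3, was covered over 458, 847, 722 and 488 bases in SPOPmut DHT and 535, 570, 761 and 471 bases in SPOPmut EtOH, against 1484, 1728, 1718 and 1667 bases in Control DHT and 1718, 1619, 1710 and 1651 bases in Control EtOH. The SPOPmut mean was 0.365 times the Control mean. Hoxb9 region 5, at the 5′ end of the Hoxb9 body, was covered over 1523 to 1694 bases in SPOPmut and 2188 to 2654 bases in Control, a ratio of 0.659.

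Call rates of the surrounding chromosomes differed between genotypes too, and these values stand beside each HoxC and HoxD result. On chromosome 2, 79.3% of all tested regions were called per SPOPmut library and 63.9% per Control library, and on chromosome 15, 80.0% per SPOPmut and 65.8% per Control library. These are the 2 largest positive differences among 21 chromosomes. On chromosome 6 the shares were 70.2% in SPOPmut and 74.2% in Control, and on chromosome 11 they were 75.8% in SPOPmut and 77.0% in Control. In the 3 Mb on each side of HoxD, peaks covered 2.31% ± 0.0770 of bases in SPOPmut and 1.79% ± 0.118 in Control. After the bases covered were divided by each library's mean over the constant regions of the same chromosome, 3 of the 5 HoxD regions still did not overlap between genotypes: Hoxd13 region 1 (ratio 1.23), Hoxd13 region 2 (ratio 2.53) and Hoxd11 region 2 (ratio 1.43). Hoxa3 region 3 (0.384), Hoxb9 region 5 (0.682) and, by this measure, Hoxc13 region 1 (0.713) were narrower in every SPOPmut library. After the chromosome's call rate was subtracted from each library, Hoxc4 no longer passed and Hoxd10 still did. The HoxB and Hoxa3 differences lie on chromosomes 11 and 6, where the call rate differed by -1.19 and -3.92 percentage points (SPOPmut minus Control). The part of these rates in the HoxB and Hoxa3 differences was not tested.

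Called regions at HoxC numbered 5 in every SPOPmut library and 4 or 5 in Control libraries (4.25 ± 0.463), and at HoxD 11 or 12 in SPOPmut (11.8 ± 0.463) and 10 or 11 in Control (10.8 ± 0.463). At HoxA they numbered 20 to 25 in SPOPmut (22.8 ± 1.49) and 20 to 24 in Control (22.9 ± 1.36; SD, n = 8 each). Summed over the 4 clusters there were 48.2 ± 2.19 in SPOPmut and 51.0 ± 2.33 in Control. The ranges touch or overlap for every cluster except HoxB, and the HoxC and HoxD differences turn negative with the chromosome (-0.103 and -0.847) or flank (-0.298 and -0.497) call rate subtracted.

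The second comparison asks whether DHT changed the Hox clusters. None of the 15 tested Hox genes passed for DHT (exact permutation test as above), and none had an unadjusted p under 0.05, while 8.55% of all genes passed (5.41% higher, 3.14% lower). The 6 Hox genes with the same count in every library could not pass. Of the 59 regions 1 passed, against 1.77% of all regions (1.51% higher, 0.259% lower). It was higher with DHT, and in each genotype 1 Hox region was called in all DHT and no EtOH libraries (background 4.7% in SPOPmut and 2.93% in Control), and no Hox region showed the reverse (background 1.98% in SPOPmut and 1.96% in Control).

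Among the posterior genes the DHT difference was 0.12 for Hoxa13, 0.38 for Hoxa10, 0.25 for Hoxd10, -0.25 for Hoxd11 and 0 for Hoxa9, Hoxa11, Hoxb9 and Hoxd13. Hoxb1 and Hoxc4 both had a DHT difference of -0.25. None of the 39 constant Hox regions was covered over more bases in every DHT library than in any EtOH library, or over fewer, against 2.13% and 0.733% of all constant regions.

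The DHT effect was also compared between genotypes by permuting treatment within genotype. No Hox gene and no other gene passed (0% of 11212), and 0 of the 15 Hox genes had an unadjusted p under 0.05, while 799 of all genes did. After the mean DHT effect of both genotypes was subtracted, 5.11% of all genes passed (3.63% higher, 1.48% lower) and 0 of 15 Hox genes did. Here too the 6 Hox genes with the same count in every library could not pass.

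Genes that act with the Hox proteins were examined as lists, beside a background of 19.4% of all genes higher and 12.1% lower for genotype and 8.55% called for DHT. Of the TALE homeodomain cofactors, which bind DNA together with Hox proteins, 9 of 11 were tested, 3 passed as higher and 1 as lower in SPOPmut, and none passed for DHT. Meis2 averaged 18 called regions in SPOPmut DHT and 16 in SPOPmut EtOH, against 9.75 in Control DHT and 11.5 in Control EtOH (difference 6.38, exact test, adjusted p = 0.00325). Pbx3 had a difference of 2.38 (exact test, adjusted p = 0.0098) and Pknox2 one of -2.25 (adjusted p = 0.00325). Meis2 and Pbx3 also lie on chromosome 2. Of 10 Polycomb genes tested 0 were higher and 1 was lower, Ezh2, the H3K27 methyltransferase (difference -0.75, exact test, adjusted p = 0.0456). Of 8 Trithorax and activating genes tested 2 were higher, Dot1l (difference 1.38, exact test, adjusted p = 0.0180) and Ash2l (difference 1.25, adjusted p = 0.00325). Cdx2, a homeodomain activator of Hox genes, had 2 regions in every library. The median difference was 0 for cofactors, -0.06 for Polycomb and 0.12 for Trithorax genes, beside 0 over all genes.

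Genes that flank the clusters were examined in the same way, and their calls are to be read against the 31.5% of all genes that passed for genotype (19.4% higher, 12.1% lower) and 8.55% for DHT. Beside HoxA, 4 genes were tested, 1 was higher (Skap2, 2.88) and 2 were lower in SPOPmut (Snx10, -2, and Evx1, -1.75). Evx1, a homeobox gene next to Hoxa13, averaged 0.75 called regions in SPOPmut DHT and 0 in SPOPmut EtOH, against 2.00 in Control DHT and 2.25 in Control EtOH (exact test, adjusted p = 0.00325). Its paralogue Evx2 beside Hoxd13 moved the other way, with 5 in SPOPmut DHT and 5 in SPOPmut EtOH, against 3.25 in Control DHT and 3.75 in Control EtOH (difference 1.5, exact test, adjusted p = 0.00325). Beside HoxD 2 of 5 tested genes were higher and 0 lower, beside HoxC 1 of 5 was higher (Smug1, 3.38, exact test, adjusted p = 0.00325), and beside HoxB 1 of 5 was lower (Ttll6, -2, adjusted p = 0.00325). Call rates were higher in SPOPmut on chromosomes 2 (HoxD, Evx2) and 15 (HoxC, Smug1), and lower on 6 (HoxA, Evx1) and 11 (HoxB). The part of these rates in the differences of the flanking genes was not tested. For DHT, Ube2z beside HoxB (1.00, exact test, adjusted p = 0.0119) and Atp5g3 beside HoxD (1.38, adjusted p = 0.0119) were higher, and Smug1 beside HoxC was lower (-1.62, adjusted p = 0.0321).

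The labelled tissue was checked against epithelial markers. Krt8, Krt18 and Foxa1 of the luminal list and Krt5, Krt14 and Trp63 of the basal list had called regions in every group. Luminal markers summed to 27 to 31 called regions per library in SPOPmut DHT and 28 to 32 in SPOPmut EtOH, against 22 to 22 in Control DHT and 21 to 25 in Control EtOH, and 3 of 4 tested were higher in SPOPmut, beside 19.4% of all genes higher and 12.1% lower (Krt8 and Krt18, both on chromosome 15, and Foxa1). Endothelial markers summed to 9 to 12 in SPOPmut DHT and 12 to 12 in SPOPmut EtOH, against 16 to 18 in Control DHT and 18 to 19 in Control EtOH, and 2 of 3 were lower. Of the basal markers 1 of 3 was higher and 1 lower, of the stromal 1 of 4 was lower, of the immune 1 of 2 was higher, and the 1 tested neuroendocrine marker did not pass. The part of these markers in the Hox differences was not tested.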

How the data were processed

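ATAC-seq peak lists of 16 libraries were used, 4 in each of 4 groups. The submitters' processing notes name the build mm10, the aligner Bowtie2 (2.3.4.1), SAMtools (1.8) and the peak caller Genrich, and each library has its own list. The -log10 p and the signal of each peak were deposited by the authors, and the smallest signal in each list is 200. Depth is unknown, so list length is given instead.

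Overlapping peaks (1 bp) were merged, regions called in 2 or more libraries were kept, and each was assigned to the nearest gene body, measured from its centre, within 100 kb. Of these regions 91.2% were assigned. A gene's value is its number of called regions in a library, and genes with 2 or more regions were tested by exact permutation of 1 factor within the other (4900 arrangements). Regions were tested by the exact stratified hypergeometric test, and p-values were adjusted by Benjamini-Hochberg over all genes or regions. The tests were checked on simulated data. Tools were Python 3.11.15, NumPy 2.4.6, pandas 2.3.3, SciPy 1.17.1 and Matplotlib 3.10.9.

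The genes and lists were chosen with earlier results of these data known. Given in full were genes called in a test, genes with a region in all 4 libraries of a group and none of its counterpart, the 6 genes with the most regions and the posterior genes. Promoter and microRNA sequences came from RefSeq. Values of some genes of these lists are not reported here, although counts over a list include them. Lnp was entered as Lnpk, and 1 neighbour, Prac1, had no match in the gene table. Alternatives covered the overlap, list length, distance, library minimum, call rates, the replicate block and each library left out.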

Additional observations from a re-analysis of the deposited data

Results flagged for a closer look

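Single libraries stood apart from the other 3 of their group in 11 of 120 groups of values examined, and 1 effect went opposite ways in the genotypes. Chance gives about 1 in 20 such groups, or 6 of 120. Among gene counts, Hoxa10 had 3 regions in SPOPmut EtOH library 3, 4 in Control DHT library 3 and 5 in Control EtOH library 1. Hoxa11 had 3 in SPOPmut EtOH library 4, 4 in Control DHT library 1 and 2 in Control EtOH library 2. Hoxa13 had 3 in SPOPmut EtOH library 2 and 5 in Control EtOH library 4, and Hoxb1 had 2 in SPOPmut EtOH library 1, which holds both SPOPmut calls at Hoxb1 regions 1 and 2. Control EtOH library 2 had 12 called HoxB regions and peaks over 25.4% of HoxA, below the other libraries of its group in both. In counts that take few values, 1 differing library is enough to stand apart.

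The DHT effect on Hoxa13 was larger in SPOPmut than in Control by 0.75 regions. The difference itself did not pass (exact permutation of treatment within genotype, adjusted p = 1, and 0.852 after the mean DHT effect was subtracted).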

How the results depend on the processing

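The count of Hox genes called for genotype was 5 where peaks had to cover 50% of a region, 7 with the chromosome or the flank call rate subtracted, and 1 with the replicate block, instead of 3. Hoxd3, Hoxd8 and Hoxd13, with constant counts, are among the 7 only because a rate that differs between genotypes is subtracted from them. The call of Hoxb1 held in every setting that tested it; within 25 kb it kept 1 region and had no test. Hoxc4 lost its call with 50% cover (exact test, adjusted p = 0.0863), either rate subtracted (0.0865 and 0.234) and the replicate block (0.0972), and Hoxd10 with 50% cover (0.352), equal list length (0.374) and the block (0.0972). For DHT 1 gene passed with the stronger 50% of peaks. Regions called for genotype numbered 7 with 50% cover, 2 within 25 kb and 0 with the block, and for DHT 0 with the stronger 50% of peaks, within 25 kb and with the block. The replicate block allows 256 arrangements and p-values down to 0.00781. Deviations of same-numbered libraries had correlations of -0.0116 to 0.0107 across genotypes and -0.0715 to 0.0459 across treatments. The labels do not say what a replicate number stands for, and low correlations cannot show that it carries no batch.

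The SPOPmut minus Control difference in called regions was -1.62 with the stronger 50% of peaks and -2.50 within 25 kb for HoxB. For HoxC it was 1.125 with 50% cover, 1.125 with equal length, -0.103 with the chromosome rate and -0.298 with the flank rate subtracted. For HoxD it was 2.88 with 50% cover, 3.62 with the stronger 50% of peaks, -0.847 with the chromosome rate and -0.497 with the flank rate subtracted. For DHT it was -1.125 with 50% cover and -1.38 with the stronger 50% of peaks for HoxC, and -0.50 with equal length for HoxD. Regions covered over more bases in every SPOPmut library numbered 3 after scaling by chromosome, a setting chosen after the data were seen. Direction reversed for HoxC and HoxD as given, Hoxd11 (-0.21 with the chromosome and -0.13 with the flank rate subtracted) and the DHT effect on Hoxa13 (-0.12 without SPOPmut EtOH library 2, the lowest value with a library left out, and 0.25 without Control EtOH library 4, the highest). With each library left out, 3 to 4 genes and 4 to 5 regions passed for genotype, and 0 genes and 1 region for DHT. The causes were not tested. Depth is unknown, and a region without a peak may lie just under the caller's threshold.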
